A study of Homo sapiens with 16 samples.

Results

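The genes described here were the 9 leukocyte integrin genes ITGB2, ITGAL, ITGAM, ITGAX, ITGB1, ITGA4, ITGA5, ITGB7 and ITGAE, taken by gene name from the 60623 genes counted in each of 16 RNA-Seq libraries of MUTZ-3. They were 9 of the 26 integrin chain genes in the files. All 9 had at least 10 counts in every library and passed the filter on low counts in both experiments. MUTZ-3 is an established acute myeloid leukemia cell line with a rearrangement of chromosome 3 that drives EVI1, the oncogenic transcript of MECOM, and it was grown with GM-CSF and medium conditioned by a bladder cancer cell line. In the PARP inhibitor (PARPi) experiment, cells were kept in DMSO, in olaparib at 10 µM or in talazoparib at 1 µM for 12 h, 24 h or 48 h, beside 1 untreated library at 0 h. In the knockdown experiment, cells were transduced with lentiviral pLKO.1 vectors that carried the non-targeting control SHC002 (NTC) or either of the EVI1 hairpins shEVI1-2531 and shEVI1-2532, selected with puromycin and harvested on day 3 or day 6.

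Every condition was a single library of a single cell line, so time points stood in for replicates, p-values measured the spread between these libraries only, and nothing in the labels tied libraries to separate cultures. Libraries held between 55999673 and 72681943 counts in the PARPi experiment (10 libraries) and between 95523038 and 120716213 in the knockdown experiment (6 libraries). Levels are given as counts scaled to a common library total (CPM), where 3 counts equal at most 0.0536 CPM. In these bulk libraries, more cells of one kind and more RNA per cell cannot be told apart. MECOM, the targeted gene, was at 42.4 CPM in NTC, 12.3 CPM with shEVI1-2531 and 4.51 CPM with shEVI1-2532 on day 3, and at 44.2, 18.5 and 4.03 CPM on day 6. MECOM was thus lower with both hairpins, which does not tell one EVI1 hairpin from another. The deposited files of the shEVI1-2531 libraries carry a different hairpin number in their names, and the identity given here rests on the labels. The untreated library stood apart in CD83, an activation marker, at 63.4 CPM against 3.20 to 15.3 CPM elsewhere, and it entered no test.

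Integrins are heterodimeric adhesion receptors of an alpha and a beta chain that are held inactive on circulating leukocytes and switch to a binding form when talin and kindlin engage the beta tail. ITGB2 encodes the leukocyte-restricted beta chain CD18, which pairs with the alpha chains of ITGAL (CD11a, giving LFA-1), ITGAM (CD11b, giving Mac-1 or complement receptor 3) and ITGAX (CD11c, giving complement receptor 4). ITGB1 pairs with ITGA4 to bind VCAM1 and fibronectin and with ITGA5 to bind fibronectin, contacts that hold blood progenitors in the marrow. ITGB7 pairs with ITGA4 for homing to the gut and with ITGAE for binding E-cadherin on epithelium. CD11b and CD11c are used as surface markers of myeloid maturation. In the files (GRCh38), ITGAL (chr16:30472719-30523185), ITGAM (chr16:31259967-31332892) and ITGAX (chr16:31355134-31382997) lie on the + strand of chromosome 16, and ITGA4 (chr2:181457202-181538940) on that of chromosome 2. ITGB2 (chr21:44885953-44931989), ITGA5 (chr12:54395261-54419266), ITGB7 (chr12:53191323-53207282), ITGB1 (chr10:32900318-33005792) and ITGAE (chr17:3714628-3801188) lie on the - strand.

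The stretches upstream of the start site are shown for ITGAM and ITGB7, which rose with both hairpins, and for ITGA5, which passed no test. RefSeq promoters (build GRCh38.p14) were matched for 6 of the 9 genes; ITGAL, ITGAX and ITGB2 had no entry. The 250 bases before each start are written 5′ to 3′ on the gene's strand, in lower case, with matches to the searched motifs in capitals. ITGAM lies at chr16:31259725-31259974 (+ strand), ITGB7 at chr12:53207252-53207501 (- strand) and ITGA5 at chr12:54419267-54419516 (- strand). The starts are those of the RefSeq entries. By the gene spans given above, the ITGAM and ITGB7 windows reach into the gene, and the ITGB7 match lies inside its span.
ITGAM: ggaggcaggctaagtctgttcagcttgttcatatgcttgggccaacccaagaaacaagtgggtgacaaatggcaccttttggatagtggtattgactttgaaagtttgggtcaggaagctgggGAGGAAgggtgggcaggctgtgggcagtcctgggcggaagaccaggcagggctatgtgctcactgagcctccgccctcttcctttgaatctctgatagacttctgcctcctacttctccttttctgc
ITGB7: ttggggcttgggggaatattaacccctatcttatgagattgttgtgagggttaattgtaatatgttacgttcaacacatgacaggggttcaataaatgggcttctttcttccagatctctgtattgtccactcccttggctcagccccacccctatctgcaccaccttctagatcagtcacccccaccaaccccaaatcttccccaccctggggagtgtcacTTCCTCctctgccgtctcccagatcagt
ITGA5: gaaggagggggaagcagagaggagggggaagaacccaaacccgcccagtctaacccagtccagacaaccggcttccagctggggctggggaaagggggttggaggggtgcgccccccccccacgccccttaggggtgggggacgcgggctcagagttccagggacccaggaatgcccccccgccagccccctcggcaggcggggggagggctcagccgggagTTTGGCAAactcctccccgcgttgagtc
Both strands were searched for GAGGAA, a core recognized by Ets factors such as PU.1, for the RUNX core TGTGGT, and for the C/EBP motif TTGCNNAA. Also searched were AGATAA, a core of GATA factors that is part of the motif of the first EVI1 zinc-finger domain, and the motif GAAGATGAG of the second EVI1 domain. GAGGAA was present in the windows of ITGAM, ITGB7 and ITGAE and in 1 of the 2 ITGB1 windows, and was found in 23.6% of all 35116 promoters of this length. ITGA5 held a TTGCNNAA match (9.05% of all promoters). The RUNX core, the GATA core and the second EVI1 motif, held by 11%, 9.17% and 0.265% of promoters, were found in none of the windows of the 6 genes.

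Before any comparison, the levels without inhibitor or EVI1 hairpin set the background. Per kilobase of merged exon, ITGB2 had the highest level of the 9 genes in the untreated and DMSO libraries, at 52.5 to 66.2 CPM per kb, and did not overlap with any other member there. ITGB1 (34.1 to 39.3), ITGA5 (17.6 to 43.2), ITGA4 (23.9 to 33.3) and ITGAL (20.4 to 34.1) followed, with overlapping ranges except that ITGB1 lay above ITGA4. ITGAM (4.52 to 7.91 CPM per kb) lay below these and above ITGAE (2.45 to 4.06), ITGAX (1.51 to 2.38) and ITGB7 (0.799 to 3.04). The ITGB7 range overlapped those of ITGAX and ITGAE, which did not overlap each other. The NTC libraries placed ITGB2 highest again, at 54.8 and 80.1 CPM per kb, and ITGB7 lowest, at 0.754 and 1.203.

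Several members moved in culture without any inhibitor. ITGA5, the alpha chain of the fibronectin receptor, was at 327.5 CPM in untreated cells and at 244, 172.5 and 133 CPM after 12, 24 and 48 h of DMSO. ITGB7 was at 6.79 CPM untreated and at 13.6, 7.14 and 3.58 CPM in the same DMSO libraries, so it was highest at 12 h and then fell below the untreated level. ITGAM fell from 45.0 CPM to 38.5, 29.8 and 25.7 CPM. ITGB1 stayed between 205 and 236 CPM in these 4 libraries, the narrowest relative range of the 9 genes, with a highest-to-lowest ratio of 1.15. Between NTC on day 3 and NTC on day 6, ITGA5 rose from 124 to 235 CPM and ITGAE went from 29.2 to 16.2 CPM. These changes were not tested.

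The PARPi comparison asked how the integrin transcripts of EVI1-driven cells respond when PARP1 is inhibited. The CD18 chain and its alpha partners CD11b and CD11c, together with ITGB7, had a ratio to DMSO that grew at each time point on either inhibitor. The ITGB1 ratios ran from 0.824-fold to 1.28-fold and those of ITGA5 from 0.704-fold to 1.06-fold. ITGAL was higher than DMSO in all 6 pairs, by 1.21-fold to 1.95-fold. ITGA4 and ITGAE were below the DMSO library of the same hour in all 6, ITGA4 barely so with olaparib at 24 h. Of the 54 inhibitor ratios on plain CPM, those over 2-fold higher than the DMSO library of the same hour belonged to ITGAM, ITGAX, ITGB2 and ITGB7. The only one over 2-fold lower was ITGA4 with talazoparib at 48 h, at a log2 ratio of -1.06. After subtracting the median log2 ratio over all tested genes, it was -0.79, short of 2-fold. ITGAL in the same pair was then at 1.24.

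ITGB2, the shared beta chain, was at 450 CPM in DMSO, 558 CPM with olaparib and 599 CPM with talazoparib at 12 h. At 24 h the 3 libraries were at 407, 792 and 963 CPM, and at 48 h at 357, 1240 and 1668 CPM. All 6 inhibitor libraries lay above all DMSO and untreated libraries. The ratio to DMSO grew from 1.24-fold (olaparib) and 1.33-fold (talazoparib) at 12 h to 3.48-fold and 4.68-fold at 48 h. How many of all tested genes had every inhibitor library above, or below, all DMSO libraries was not counted.

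ITGAM, the CD11b chain, was at 38.5 CPM in DMSO, 46.2 CPM with olaparib and 64.7 CPM with talazoparib at 12 h. At 24 h it was at 29.8, 70.8 and 93.1 CPM, and at 48 h at 25.7, 111 and 195 CPM. The inhibitor libraries lay above every DMSO and untreated library. Talazoparib at 48 h gave a 7.58-fold ratio, with a log2 ratio of 2.92 and a 95% counting interval of 2.85 to 3.00 (Clopper-Pearson on the counts of the pair), which covers counting error only.

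ITGAX, the CD11c chain, was at 16.9, 19.2 and 24.4 CPM in DMSO, olaparib and talazoparib at 12 h. The levels were 10.7, 29.5 and 34.8 CPM at 24 h, and 12.3, 56.4 and 81.3 CPM at 48 h. Its groups did not overlap, although olaparib at 12 h lay only 1.14-fold above its DMSO library. ITGAL, the CD11a chain, was at 221, 267 and 291 CPM at 12 h, at 160, 267 and 233 CPM at 24 h, and at 132, 217 and 257 CPM at 48 h. From 12 h to 48 h ITGAL thus fell less with either inhibitor than in DMSO. Olaparib at 48 h lay below DMSO at 12 h, so the ITGAL groups overlapped. Against the mean of the 3 DMSO libraries instead of the library of the same hour, its 48 h log2 ratios were 0.34 with olaparib and 0.59 with talazoparib, in place of 0.72 and 0.96.

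ITGB7, the beta chain of the gut-homing integrin, was at 13.6, 16.7 and 17.3 CPM in DMSO, olaparib and talazoparib at 12 h. It was at 7.14, 14.7 and 18.6 CPM at 24 h and at 3.58, 24.0 and 35.1 CPM at 48 h, so its olaparib level was lower at 24 h than at 12 h. The inhibitor libraries lay above all DMSO libraries, and the 9.82-fold ratio with talazoparib at 48 h combined a rise with the inhibitor and a fall in DMSO. Against the mean of the 3 DMSO libraries, that log2 ratio was 2.12 in place of 3.30. ZNF740, a zinc-finger gene on the opposite strand that shares 1886 exon bases with ITGB7, stayed between 38.2 and 71.8 CPM over all 16 libraries. The strand setting of the counting is not given in the sources used here.

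ITGA4, the alpha chain of VLA-4, was at 262.5, 241 and 209 CPM in DMSO, olaparib and talazoparib at 12 h. It was at 263, 262 and 197 CPM at 24 h, and at 210, 159 and 100 CPM at 48 h, so the talazoparib library was lowest at each hour. ITGAE, the alpha chain of the E-cadherin receptor, was at 24.1, 19.0 and 15.7 CPM at 12 h, at 26.99, 15.8 and 18.7 CPM at 24 h and at 21.4, 16.2 and 11.7 CPM at 48 h. All 6 inhibitor libraries of ITGAE lay below the 3 DMSO libraries, but those at 0.548-fold to 0.788-fold of DMSO straddled the untreated level of 16.3 CPM. HASPIN, a mitotic histone kinase gene that lies on the opposite strand inside ITGAE and shares 427 exon bases with it, was at 22.6 CPM in DMSO at 12 h, 13.1 CPM in DMSO at 48 h and 2.29 CPM with talazoparib at 48 h, and its part in the ITGAE counts was not tested.

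ITGB1 ranged from 180 to 274 CPM and ITGA5 from 93.9 to 248 CPM over the 6 inhibitor libraries, against 214 to 236 CPM and 133 to 244 CPM in DMSO. Both overlapped between inhibitor and DMSO. Both ITGA5 inhibitor libraries at 48 h, at 93.9 and 103 CPM, were below DMSO at 133 CPM.

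**Figure D1:**
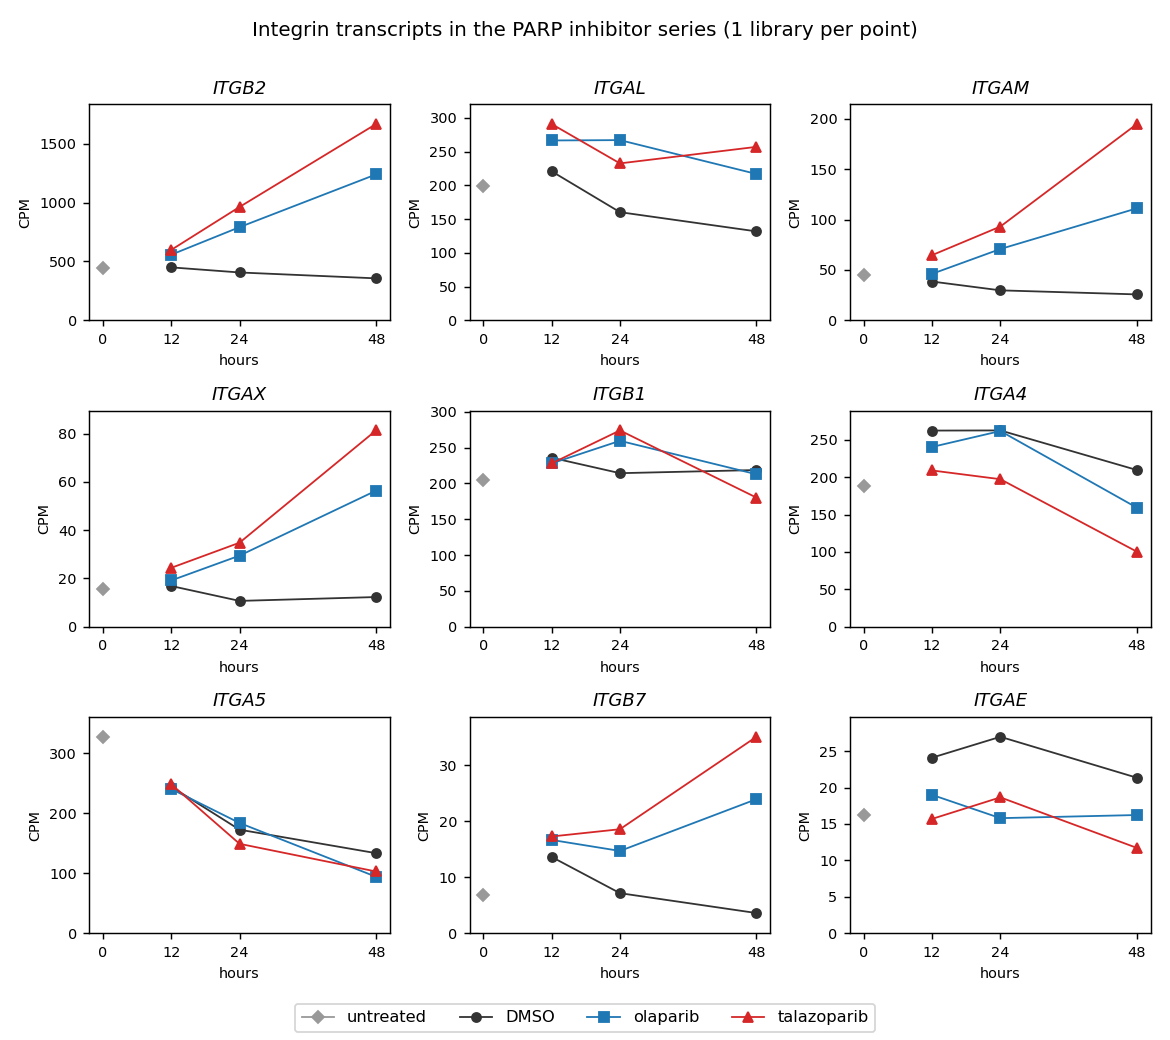
CPM (y axis, from 0) of the 9 integrin genes against hours (x axis) in the PARPi experiment, with 1 library per point: untreated (grey diamond), DMSO (black circles), olaparib (blue squares) and talazoparib (red triangles). ITGB2, ITGAM, ITGAX and ITGB7 separate from DMSO with time, reaching 1668, 195, 81.3 and 35.1 CPM with talazoparib at 48 h, whereas the ITGB1 and ITGA5 levels overlap those of DMSO.

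Across all 17218 tested genes, edgeR's quasi-likelihood test of the mean effect of both inhibitors over the 3 time points, adjusted by Benjamini-Hochberg, called 3.16% of genes higher and 1.01% lower. Of the 9 members, 1 was called: ITGAL rose by 0.68 ± 0.15 (log2 fold change ± SE, adjusted p = 0.0480, edgeR). ITGAM at 1.48 ± 0.36, ITGAX at 1.45 ± 0.38 and ITGB2 at 1.17 ± 0.30 had larger means but missed the threshold with adjusted p of 0.0527, 0.0555 and 0.0559 in this model, which has no term for growth with time. ITGB7 (1.41 ± 0.47, adjusted p = 0.0803), ITGAE (-0.50 ± 0.13, adjusted p = 0.0555) and ITGA4 (-0.31 ± 0.11, adjusted p = 0.0857) also missed it, and ITGB1 (0.11 ± 0.11) and ITGA5 (-0.08 ± 0.11) had adjusted p of 0.456 and 0.584. The members' median log2 change was 0.68 against -0.01 over all tested genes.

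The mean effect was close to the threshold in both directions. Members called numbered 6 without the DMSO library at 12 h, 5 without talazoparib at 12 h, 2 without DMSO at 48 h and 2 without talazoparib at 48 h. Over all genes, 2527 of 17095 were called higher and 2193 lower without DMSO at 12 h. Without talazoparib at 12 h these were 1806 and 1518 of 17031. Without DMSO at 48 h they were 473 and 94 of 17050, and without talazoparib at 48 h 588 and 261 of 17062. No member was called without any 1 of olaparib at 12 h, DMSO, olaparib or talazoparib at 24 h, or olaparib at 48 h. Over all genes, those 5 fits called at most 68 of 17111 higher and at most 1 lower, so calls were lost across all genes. ITGAL lost its call without each of those 5 libraries and without DMSO at 48 h (adjusted p up to 0.197), and with scaling to the library total alone (adjusted p = 0.0509). With slope terms in the model, 7 members were called at the middle time point, ITGAL, ITGAM, ITGAX, ITGB2 and ITGB7 higher and ITGA4 and ITGAE lower. That fit called 3465 of all 17218 tested genes higher and 3339 lower.

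The growth of the effect was tested as the slope of the log2 ratio to DMSO per doubling of time, averaged over both inhibitors. Of all tested genes, 10.0% had a called positive slope and 9.82% a called negative one. Of the members, 5 had a called positive slope and none a negative one. The largest was ITGB7, at 1.44 ± 0.15 per doubling (adjusted p = 1.33e-19). ITGAX followed at 1.16 ± 0.14 (adjusted p = 6.93e-15), ITGAM at 1.11 ± 0.14 (adjusted p = 3.66e-14) and ITGB2 at 0.93 ± 0.13 (adjusted p = 2.86e-10), while ITGAL had 0.36 ± 0.13 (adjusted p = 0.0342). The 4 others lay between -0.14 and 0.05, with adjusted p from 0.486 to 0.910.

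These slopes rest on 2 residual degrees of freedom, and edgeR set every gene's error from the common trend, so the p-values carry no gene-specific spread. Without the DMSO library at 48 h, ITGAM (adjusted p = 0.0498) and ITGAX (adjusted p = 0.00204) kept their calls, and ITGB2 (0.73, adjusted p = 0.321), ITGB7 (0.88, adjusted p = 0.0549) and ITGAL (0.30, adjusted p = 0.905) lost theirs. Over all 17050 genes of that fit, 219 slopes were called positive and 39 negative. ITGAL also lost its call without DMSO at 12 h or 24 h, without olaparib at 12 h or 48 h and without talazoparib at 48 h, with slopes of 0.22 to 0.49. The ITGAL call was lost as well with library totals only (0.25, adjusted p = 0.186) and without a filter on low counts (adjusted p = 0.0659).

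Olaparib and talazoparib, both catalytic PARP inhibitors of which talazoparib is the stronger PARP1 trapper, were compared at the same hours but at different doses, 10 µM and 1 µM, so differences between the compounds cannot be told apart from differences in dose. edgeR called 0% of the 17218 genes higher and 0% lower between them, 0 members among these. At an unadjusted p under 0.05 there were 354 genes, and DESeq2 called 1. ITGAM was higher with talazoparib at each hour, by 1.40-fold, 1.32-fold and 1.75-fold, with a fitted log2 difference of 0.64 and a 95% interval of -0.23 to 1.51. ITGA4 was lower with talazoparib at each hour, by a fitted -0.38 (95% interval -0.66 to -0.10 before adjustment, adjusted p = 0.952). ITGAX (0.44, interval -0.46 to 1.33), ITGB2 (0.34, interval -0.41 to 1.09) and ITGB7 (0.41, interval -0.70 to 1.52) were not distinguishable at these intervals. The intervals of ITGAL, ITGA5, ITGB1 and ITGAE lay within -0.49 and 0.49.

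Knockdown of EVI1 asked which of these receptors are higher or lower once the oncogene is reduced. With either hairpin, ITGB2, ITGAM, ITGAX, ITGAL, ITGB7 and ITGB1 rose against NTC. The hairpin that left less MECOM, shEVI1-2532, gave the larger fitted rise for each of these chains. ITGA4 rose and ITGAE fell with shEVI1-2532, and ITGA5 passed neither test.

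ITGB2 was at 373 CPM in NTC, 858.5 CPM with shEVI1-2531 and 2233 CPM with shEVI1-2532 on day 3, and at 545, 1331 and 2177 CPM on day 6. ITGAM was at 25.8, 73.9 and 201 CPM on day 3 and at 48.6, 127 and 379 CPM on day 6, the highest ITGAM level of the 16 libraries. ITGAX was at 12.0, 23.6 and 49.6 CPM on day 3 and at 17.8, 42.9 and 70.3 CPM on day 6. For these 3 genes, both libraries of each hairpin lay above both NTC libraries, and both shEVI1-2532 libraries lay above both shEVI1-2531 libraries. How many of all tested genes separate in these ways was not counted. Of all tested genes, edgeR called 9.49% higher with shEVI1-2531 and 21.2% higher with shEVI1-2532 than in NTC. Between the hairpins, 12.2% were called higher with shEVI1-2532.

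ITGAL was at 100 CPM in NTC, 137 CPM with shEVI1-2531 and 243.5 CPM with shEVI1-2532 on day 3, and at 173.5, 290 and 333 CPM on day 6, so that NTC on day 6 lay above shEVI1-2531 on day 3. ITGB7 was at 3.38, 14.1 and 13.6 CPM on day 3 and at 5.39, 17.3 and 26.3 CPM on day 6. Every hairpin library of ITGB7 lay above both NTC libraries, and the hairpins overlapped. ITGB1 was at 157.5, 180 and 233 CPM on day 3 and at 153, 210 and 216 CPM on day 6.

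ITGA4 was at 118, 86.4 and 164.5 CPM on day 3 and at 97.2, 109 and 127.5 CPM on day 6, so shEVI1-2531 lay below NTC on day 3 and above it on day 6. ITGA5 was at 124, 100.3 and 117 CPM on day 3 and at 235, 188 and 150 CPM on day 6. ITGAE was at 29.2, 27.5 and 15.0 CPM on day 3 and at 16.2, 16.01 and 10.7 CPM on day 6. The shEVI1-2532 libraries of ITGAE were lowest, and NTC and shEVI1-2531 nearly coincided on each day.

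**Figure D2:**
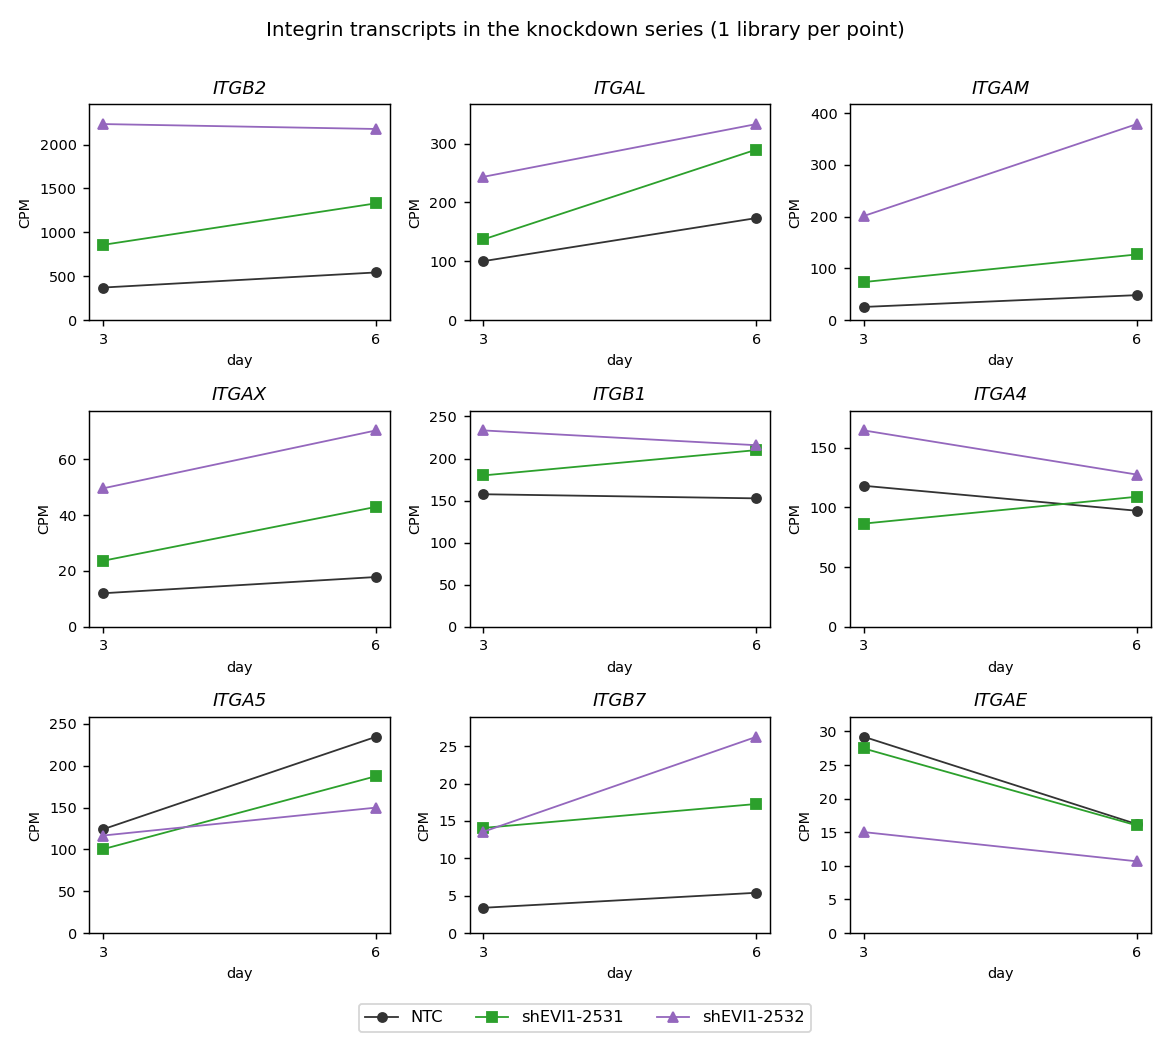
CPM (y axis, from 0) of the 9 integrin genes on day 3 and day 6 (x axis) of the knockdown experiment, with 1 library per point: NTC (black circles), shEVI1-2531 (green squares) and shEVI1-2532 (purple triangles). For ITGB2, ITGAM and ITGAX the 3 lines are ordered NTC, shEVI1-2531, shEVI1-2532 on both days, with ITGAM reaching 379 CPM, and ITGA5 shows no such order.

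In edgeR fits with the day as a block over 18606 tested genes, shEVI1-2531 called 9.49% of genes higher and 7.90% lower. Of the 9 members, 6 were called higher and none lower. ITGB7 rose by 2.05 ± 0.21 (log2 fold change ± SE, adjusted p = 6.87e-05), ITGAM by 1.62 ± 0.13 (adjusted p = 1.58e-05), ITGB2 by 1.42 ± 0.16 (adjusted p = 0.000112) and ITGAX by 1.30 ± 0.16 (adjusted p = 0.000222). ITGAL rose by 0.77 ± 0.14 (adjusted p = 0.00346) and ITGB1 by 0.50 ± 0.13 (adjusted p = 0.0203). ITGB1 lost its call without NTC on day 3 (adjusted p = 0.0793), without NTC on day 6 (adjusted p = 0.118), without shEVI1-2531 on day 6 (adjusted p = 0.169) or with scaling to the library total alone (adjusted p = 0.109). ITGA4, ITGA5 and ITGAE had log2 changes of 0.04, -0.15 and 0.11.

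With shEVI1-2532, 21.2% of all tested genes were higher and 19.9% lower, and of the members 7 were called higher and 1 lower. ITGAM rose by 3.27 ± 0.14 (adjusted p = 7.02e-08), ITGB2 by 2.60 ± 0.16 (adjusted p = 5.03e-07), ITGB7 by 2.46 ± 0.21 (adjusted p = 3.65e-06) and ITGAX by 2.32 ± 0.16 (adjusted p = 9.66e-07). ITGAL rose by 1.42 ± 0.15, ITGB1 by 0.84 ± 0.13 and ITGA4 by 0.74 ± 0.16 (adjusted p of 1.47e-05, 0.000309 and 0.00327). ITGA4 lost its call with scaling to the library total alone (adjusted p = 0.0593). ITGAE fell by 0.48 ± 0.18 on the log2 scale (adjusted p = 0.0475) and lost that call when any 1 of the 2 NTC or 2 shEVI1-2532 libraries was left out (adjusted p of 0.0507 to 0.518). HASPIN, which overlaps it, fell by 1.40 in the same comparison (adjusted p = 0.000329). The members' median log2 change was 1.42 with shEVI1-2532 and 0.77 with shEVI1-2531, against 0.00 and 0.01 over all tested genes. The 2 hairpin comparisons share their NTC libraries.

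The hairpins themselves differed, with 12.2% of tested genes higher and 12.0% lower with shEVI1-2532 than with shEVI1-2531. Of the members, 5 were higher and 1 lower. ITGAM was higher by 1.64 ± 0.13 (adjusted p = 1.39e-05), ITGB2 by 1.18 ± 0.15 (adjusted p = 0.000269), ITGAX by 1.02 ± 0.16 (adjusted p = 0.000733), ITGA4 by 0.70 ± 0.16 (adjusted p = 0.00838) and ITGAL by 0.65 ± 0.14 (adjusted p = 0.00713). ITGAE was lower by a log2 difference of -0.59 ± 0.18 (adjusted p = 0.0296). Without shEVI1-2531 on day 3, ITGAL (0.44, adjusted p = 0.131), ITGA4 (0.40, adjusted p = 0.172) and ITGAE (-0.52, adjusted p = 0.139) lost their calls, and without shEVI1-2532 on day 3 ITGAL (adjusted p = 0.0636) and ITGAE (adjusted p = 0.418) did. ITGB7 (0.41 ± 0.20, adjusted p = 0.157) and ITGB1 (0.34 ± 0.13, adjusted p = 0.0771) missed the threshold.

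**Figure D3:**
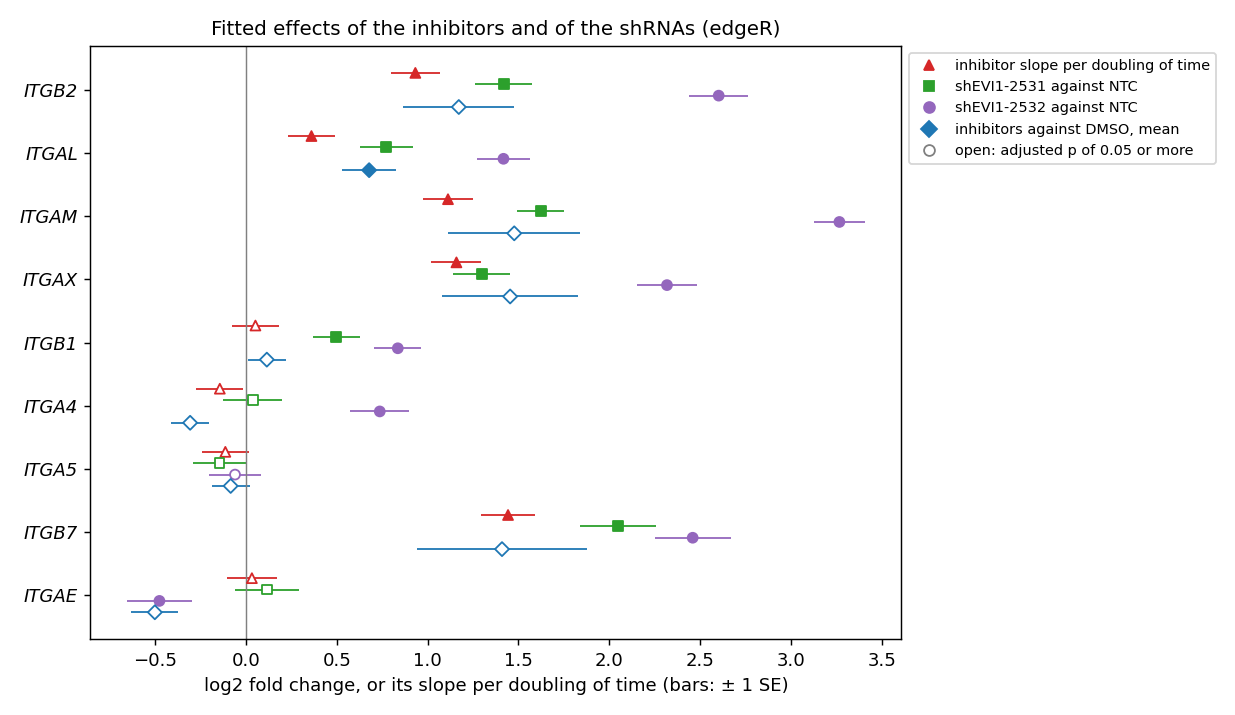
Fitted log2 fold changes of the 9 integrin genes against NTC for each hairpin and against DMSO for the mean of both inhibitors, with the inhibitor slope per doubling of time (x axis; bars are ± 1 SE from edgeR; filled symbols have adjusted p under 0.05). ITGB2, ITGAM, ITGAX and ITGB7 lie to the right in all 4 fits, from 0.93 to 3.27, whereas ITGA5 lies between -0.15 and -0.06.

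Scaling mattered for the members with small changes. On plain CPM, the median log2 ratio over all tested genes was -0.19 and -0.27 with olaparib and talazoparib at 48 h and between -0.14 and -0.31 in the 4 hairpin pairs, and was within 0.02 of 0 in the other inhibitor pairs. ITGA5 lay below NTC on plain CPM in all 4 hairpin pairs, with log2 ratios of -0.09 to -0.65, and its differences from the median gene ran from -0.33 to 0.18. ITGAM, ITGAX, ITGB2 and ITGB7 kept log2 ratios above 0.18 in all 10 pairs on plain CPM.

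The make-up of the CD18 partners shifted along with their levels. Per kilobase of exon, ITGAL made up 75.2% of the summed ITGAL, ITGAM and ITGAX level in untreated cells and 76.5% to 78.9% in DMSO. With talazoparib at 48 h its share was 46.5%, beside 40.1% ITGAM and 13.5% ITGAX, and with olaparib at 48 h it was 54.9%, beside 32.0% and 13.1%. In the knockdown experiment ITGAL held 71.4% and 70.8% in NTC on day 3 and day 6, 56.5% and 61.2% with shEVI1-2531, and 47.0% and 40.2% with shEVI1-2532. On day 6 with shEVI1-2532, ITGAM at 52.0% was the most abundant of the 3 alpha transcripts, which was seen in no other library. The ITGAX share exceeded 10% only in the 48 h inhibitor libraries, and was 8.75% and 7.77% with shEVI1-2532.

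The ITGB2 level per kilobase was 1.47 to 1.97 times the summed level of these 3 alpha chains in the untreated, DMSO and 12 h inhibitor libraries. At 48 h it was 2.99 times with olaparib and 2.87 times with talazoparib. NTC already had ratios of 2.52 and 2.12, against 3.37 and 2.68 with shEVI1-2531 and 4.11 and 2.50 with shEVI1-2532. ITGAD, the other alpha chain known to pair with CD18, was at 0.0733 CPM or less in every library. ITGB7 was 2.20% to 7.74% of the ITGB1 level per kilobase in untreated and DMSO cells and 26.2% with talazoparib at 48 h.

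**Figure D4:**
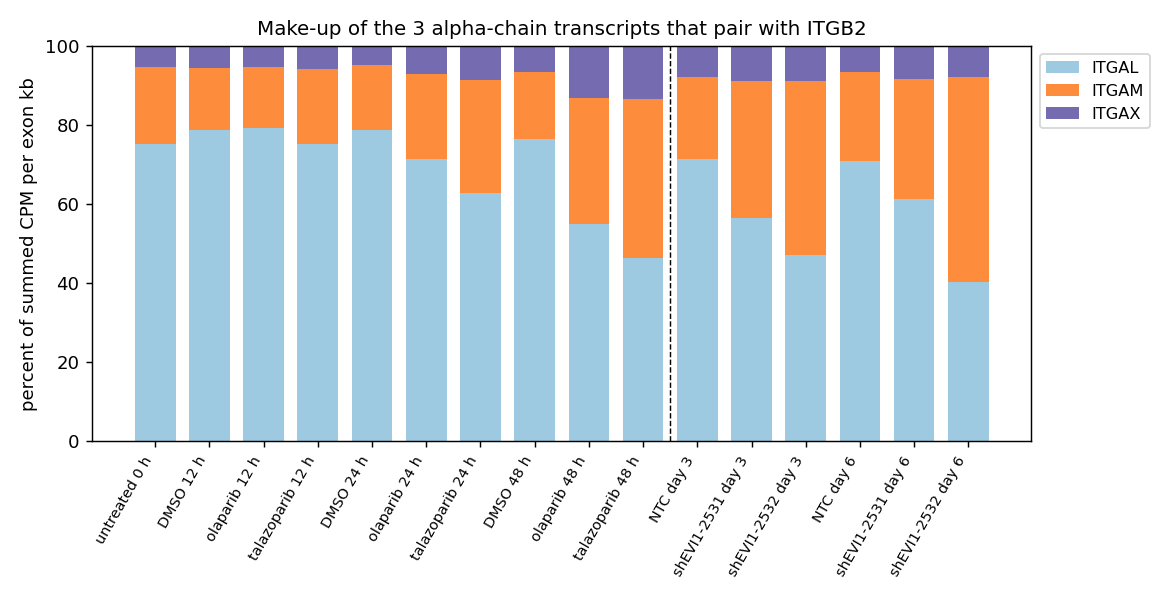
Share (percent, y axis) of ITGAL (light blue), ITGAM (orange) and ITGAX (purple) in their summed CPM per kilobase of exon, for each of the 16 libraries (x axis; the dashed line separates the PARPi from the knockdown experiment). ITGAL falls from 76.5% in DMSO at 48 h to 46.5% with talazoparib and from 70.8% in NTC on day 6 to 40.2% with shEVI1-2532.

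Among the 17 other integrin chains, 13 were tested in the PARPi experiment and 12 in the knockdown experiment. ITGA2B, the alpha chain of the platelet fibrinogen receptor, was the only one called with the inhibitors in these fits, with a mean rise of 0.87 ± 0.14 (adjusted p = 0.0253) and a slope of 0.36 ± 0.13 (adjusted p = 0.0368). With shEVI1-2532 the same gene fell by 1.32 ± 0.16 on the log2 scale (adjusted p = 5.59e-05), as 1 of 3 chains called lower, and 4 were called higher, among them ITGAV at 1.08 ± 0.21, ITGA9 at 0.78 ± 0.18 and ITGA6 at 0.60 ± 0.18. With shEVI1-2531, 2 were called higher and 1 lower. The shares of all tested genes were 3.16% for a mean rise with the inhibitors and 10.0% for a positive slope. They were 21.2% higher and 19.9% lower with shEVI1-2532, and 9.49% and 7.90% with shEVI1-2531. Leaving out 1 library gave 0 to 3 mean-effect calls in this list, and the slope call was lost in 11 of 17 alternatives. The list's median log2 change was 0.16 for the mean inhibitor effect and 0.21 with shEVI1-2532.

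Of the 26 activation and adaptor genes, 23 were tested with the inhibitors. None had a called mean effect, and 2 had a called slope, RAP1A (a small GTPase that triggers integrin activation, 0.40 ± 0.13) and FLNA (filamin A, which competes with talin for the beta tail, 0.35 ± 0.13). Over all tested genes 10.0% had a called positive slope, so 2 of 23 is near that share. With shEVI1-2531, RAP1A (0.70 ± 0.13) and ZYX (zyxin, 0.56 ± 0.13) of 24 tested were higher, and SKAP2 (-0.54 ± 0.15) and APBB1IP (RIAM, a bridge from RAP1 to talin, -0.52 ± 0.16) were lower. Those counts are near the shares over all tested genes, 9.49% higher and 7.90% lower. With shEVI1-2532, 12 were higher and 2 lower, led by FLNA (1.32 ± 0.13), PTK2 (focal adhesion kinase, 1.20 ± 0.18) and RASSF5 (RAPL, a RAP1 effector that binds LFA-1, 1.17 ± 0.13), with FYB1 lower (-0.48 ± 0.16). SKAP2, lower with shEVI1-2531, was among those called higher with shEVI1-2532 (0.79 ± 0.15). The shares over all tested genes were 21.2% higher and 19.9% lower with shEVI1-2532. Chosen after their values were seen, TLN1 (talin) was at 390 CPM in DMSO and 543 CPM with talazoparib at 48 h, and FERMT3 (kindlin-3) at 301 and 366 CPM. From NTC to shEVI1-2532, TLN1 went from 275 to 307 CPM on day 3 and from 585 to 471 CPM on day 6. FERMT3 went from 278 to 339 CPM and from 496 to 420.5 CPM on the same days. The days went opposite ways on plain CPM only in this sense. The median log2 ratio over all tested genes was itself -0.31 in the day 6 pair, so these day 6 falls cannot be told apart from scaling. The mean-effect count for this list was 0 to 11 when 1 library was left out (11 without DMSO at 12 h, 8 without talazoparib at 12 h) and 13 with slope terms, and the slope count was 0 without DMSO or olaparib at 12 h or at 48 h.

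Ligand genes moved in both directions. Of 10 tested with the inhibitors, ICAM1 (1.17 ± 0.22, adjusted p = 0.0393, edgeR) and F11R (0.74 ± 0.16, adjusted p = 0.0461) had called mean rises. ICAM1 was at 30.7 to 43.5 CPM in DMSO and 61.4 to 105 CPM with the inhibitors, all below the untreated level of 140 CPM. Slopes were called positive for 5 genes and negative for 2. The positive slopes included C3 (the complement component whose fragment iC3b is bound by Mac-1, 1.19 ± 0.14), ICAM1 (0.65 ± 0.13) and ICAM3 (0.55 ± 0.13), and the negative ones were JAM3 (-0.68 ± 0.13) and ICAM2 (-0.64 ± 0.15). With shEVI1-2531, 4 of 12 were higher and 2 lower, and with shEVI1-2532 5 were higher and 4 lower. Of all tested genes, 3.16% had a called mean rise, 10.0% a positive slope and 9.82% a negative one. The shares were 9.49% higher and 7.90% lower with shEVI1-2531, and 21.2% and 19.9% with shEVI1-2532. ICAM3, a ligand of LFA-1, rose by 0.74 ± 0.13 and 1.69 ± 0.13 with the 2 hairpins, and JAM3 fell by 1.35 ± 0.24 and 1.46 ± 0.24 on the log2 scale. C3 rose by 3.31 ± 0.43 with shEVI1-2532. Leaving out 1 library gave 0 to 7 mean-effect calls among the ligands (7 without DMSO at 12 h, 0 without olaparib at 12 h, olaparib at 48 h or any library at 24 h), and the 7 slope calls fell to 1 without DMSO at 48 h.

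Among the 20 other adhesion and homing receptors, all tested with the inhibitors, CXCR2 (1.17 ± 0.19), CD44 (0.83 ± 0.18) and CD82 (0.83 ± 0.18) had called mean rises. Slopes were called positive for 11 and negative for 2, with FPR1 (the formyl peptide receptor, 1.80 ± 0.15), CCR2 (1.06 ± 0.13) and FPR2 (1.05 ± 0.13) as the steepest. With shEVI1-2531, 7 of 19 were higher, led by FPR1 (2.77 ± 0.33) and CCR2 (2.02 ± 0.16), and SPN (-0.67 ± 0.14) was lower. With shEVI1-2532, 12 were higher, led by FPR1 (2.52 ± 0.33) and CXCR2 (2.08 ± 0.16), and 1 was lower. All tested genes had shares of 3.16% for a mean rise, 10.0% for a positive slope and 9.82% for a negative one. Their shares were 9.49% higher and 7.90% lower with shEVI1-2531, and 21.2% and 19.9% with shEVI1-2532. Leaving out 1 library gave 0 to 12 mean-effect calls in this list, and the 13 slope calls fell to 3 without DMSO at 48 h and to 6 without DMSO at 12 h. The median log2 change of this list was 0.67 for the mean inhibitor effect, 0.16 with shEVI1-2531 and 0.97 with shEVI1-2532.

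The markers of other cell states moved alongside the CD18 family. The summed level of 6 monocyte markers was 503 to 677 CPM in untreated and DMSO libraries and 530 to 3997 CPM with the inhibitors, and 390 to 507 CPM in NTC, 1208 to 1290 CPM with shEVI1-2531 and 4207 to 5606 CPM with shEVI1-2532. LYZ (lysozyme) made up most of it at 3496 CPM with talazoparib at 48 h, and CD14 was at 82.2 CPM there against 2.86 CPM in DMSO. Only CSF1R of the 6 was lower with both inhibitors than in DMSO at 48 h. LYZ also made up most of the sums with either hairpin. In NTC, shEVI1-2531 and shEVI1-2532, CD14 was at 0.456, 9.88 and 10.45 CPM on day 3. On day 6 it was at 0.687, 14.6 and 23.8 CPM. FCN1 was likewise above NTC with both hairpins on both days. CSF1R (128 to 93.1 CPM on day 3, 270 to 190 CPM on day 6) and MNDA (48.5 to 34.2 CPM, 44.0 to 40.0 CPM) were lower with shEVI1-2531 than in NTC. VCAN was lower on day 3 (5.11 to 2.60 CPM). With shEVI1-2532, MNDA was higher than in NTC, at 76.8 and 140.5 CPM. CD34, the progenitor marker, was at 432, 138 and 94.5 CPM in DMSO, olaparib and talazoparib at 48 h and at 765, 83.6 and 3.37 CPM in NTC, shEVI1-2531 and shEVI1-2532 on day 6. The other progenitor markers did not all follow CD34. At 48 h CD33 (91.8, 118.5 and 139 CPM), ANPEP (618, 879 and 1153 CPM) and CD38 (0.816, 8.75 and 7.61 CPM) were higher with both inhibitors, and MPO (2528, 907 and 513 CPM) and KIT (89.0, 55.2 and 19.0 CPM) were lower. On day 6, KIT went from 22.2 to 44.1 CPM and MPO from 3234 to 5097 CPM with shEVI1-2531. On day 3, KIT went from 35.6 to 38.4 CPM and MPO from 3490 to 3161 CPM with that hairpin. With shEVI1-2532 both were below NTC on both days, KIT at 10.1 and 8.82 CPM and MPO at 1677 and 2732 CPM. The 6 markers summed to 2866 to 4539 CPM in untreated and DMSO libraries, 1926 to 3342 CPM with the inhibitors, 4440 to 5010 CPM in NTC, 3921 to 6192 CPM with shEVI1-2531 and 2622 to 4083 CPM with shEVI1-2532. The part of these changes in the integrin results was not tested.

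The cell line kept its myeloid label, with MPO between 513 and 5097 CPM and CD33 between 79.1 and 167.5 CPM in all libraries. The 6 neutrophil markers summed to 73.7 to 106 CPM in untreated and DMSO libraries, 96.1 to 312 CPM with the inhibitors, 89.6 to 123 CPM in NTC, 119 to 221 CPM with shEVI1-2531 and 271 to 449 CPM with shEVI1-2532, nearly all of it CSF3R and CXCR2, while MMP8 was at 0.0345 CPM or less throughout. The dendritic and Langerhans cell markers summed to 8.97 to 66.6 CPM in untreated and DMSO libraries and 12.3 to 43.4 CPM with the inhibitors. They summed to 13.45 to 20.4 CPM in NTC, 33.5 to 35.7 CPM with shEVI1-2531 and 21.2 to 54.9 CPM with shEVI1-2532. The 66.6 CPM was the untreated library, with CD83 at 63.4 CPM. CD1C was at 3.28, 23.8 and 17.2 CPM in DMSO, olaparib and talazoparib at 48 h. It was above NTC with both hairpins on both days, whereas CD207 was below NTC there. Of the lymphoid markers, MS4A1 and KLRD1 had no count in any library and PAX5 was at 0.0518 CPM or less. The T and NK cell list summed to 9.40 to 31.6 CPM, mostly NKG7, and the B cell list to 9.93 to 29.2 CPM, mostly CD79A and CD79B. Of the epithelial markers, KRT8 (3.97 to 14.2 CPM) and KRT18 (6.38 to 18.05 CPM) were present in every library and reached their highest level with shEVI1-2532, whereas EPCAM and CDH1 were under 0.1 CPM in all libraries, as were COL1A2, DCN and the erythroid markers HBA1 and ALAS2. The megakaryocyte markers summed to at most 25.6 CPM, with PF4 under 0.1 CPM.

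Similarity of expression over the 16 libraries, centred within each experiment, was measured by Pearson's r of log2 CPM among 8993 genes with mean log2 CPM above 3. The r values share libraries, treatments and depth, and are given as a description. ITGB2 was most like CACNA2D4 (r = 0.99), LTB4R, a leukotriene B4 receptor, and LRRC25. ITGAM was most like GRN (progranulin, r = 0.98), LRP1 and LTA4H, the enzyme that makes leukotriene B4. ITGAX was most like SLC7A7 (r = 0.99), SLC43A2 and PILRA, and ITGB7 was most like ALOX5 (5-lipoxygenase, r = 0.98), NCF1C and ACP5. NCF1C shares near-identical sequence with NCF1 and its counts are uncertain.

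The other members kept different company. ITGAL was most like NOTCH1 (r = 0.97), VPS18 and TNIP1. ITGA5 was most like PFKP (r = 0.99), WIZ and GATAD2A, and ITGAE was most like DRG1 (r = 0.97), TOMM22 and RAN. ITGA4 (LZIC, VPS36 and MTIF2, r = 0.92 to 0.90) and ITGB1 (ACTR2, USP12 and ITFG1, r = 0.91 to 0.88) had the weakest best matches of the 9. Within the members, ITGAM, ITGAX and ITGB2 had r of 0.97 to 0.98 with one another and 0.88 to 0.89 with ITGB7, ITGAL had r of 0.73 to 0.80 with these 4, and ITGAE had r of -0.62 to -0.83 with these 5.

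Other genes overlap the members on the genome (GRCh38). ITGB2-AS1, on the opposite strand of ITGB2 with 303 shared exon bases, had counts equal to 0.947% to 2.97% of those of ITGB2, and rose by 1.89 ± 0.22 with shEVI1-2532 (adjusted p = 3.42e-05). Counts of ZNF740 were 132% to 1256% of those of ITGB7, yet its log2 changes were 0.09 ± 0.10 for the mean inhibitor effect and 0.24 ± 0.13 with shEVI1-2531 (adjusted p of 0.527 and 0.260), and 0.53 ± 0.13 with shEVI1-2532 (adjusted p = 0.00822). Every other gene that overlaps ITGAL, ITGAX, ITGB2, ITGA4, ITGA5, ITGB1 or ITGAE, HASPIN aside, was at 0.211 CPM or less in all libraries, and no gene in the files overlaps ITGAM.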

How the data were processed

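RNA of MUTZ-3 was sequenced by the authors as stranded mRNA libraries with 100 bp paired reads. The processing notes name STAR, Picard and featureCounts with hg38; versions, annotation and strand setting are not given in the sources used here. The deposited raw counts per gene were used as they stand, and the deposited TPM, which the authors computed on the whole gene span, served only as a check. The 9 genes, the gene lists and the tests were chosen with earlier results of these data known.

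Genes with at least 10 counts in 3 libraries (PARPi) or 2 libraries (knockdown) were tested with edgeR 4.0.16 (R 4.3.3; TMM, quasi-likelihood, Benjamini-Hochberg over all tested genes, threshold 0.05), with the time point or day as a block. The untreated library entered no test. SE is the log2 change over the root of F. CPM are counts scaled to the library total; levels per kilobase use merged GENCODE exons. Named were all members, overlapping genes, up to 3 genes per direction from each list by size of change with mean log2 CPM above 1, and the 3 genes most like each member. Alternatives used DESeq2 1.42.0, limma 3.58.1, other scaling, filters, models and left-out libraries. The scripts were tested on simulated data.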

Additional observations from a re-analysis of the deposited data

Results flagged for a closer look

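The effect of the inhibitors on 5 members differed between the time points in edgeR's test of the slope per doubling of time. The slopes were 0.36 for ITGAL, 1.11 for ITGAM, 1.16 for ITGAX, 0.93 for ITGB2 and 1.44 for ITGB7, all toward a larger ratio to DMSO at the later hours. Over all tested genes, 10.0% had a called positive slope and 9.82% a negative one. The ITGAL call was lost in 9 of 18 alternatives, and those of ITGB2 and ITGB7 in 1 of 18 each. The effect of EVI1 knockdown differed between the hairpins for 6 members in the direct edgeR comparison of shEVI1-2532 with shEVI1-2531. The log2 differences were 0.65 for ITGAL, 1.64 for ITGAM, 1.02 for ITGAX, 1.18 for ITGB2, 0.70 for ITGA4 and -0.59 for ITGAE. Over all tested genes, 12.2% were higher and 12.0% lower. Without the day in the model, only ITGAM and ITGB2 kept their calls.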

How the results depend on the processing

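The number of members called for the mean inhibitor effect was 1, and was 5 with DESeq2, 5 with limma-voom (added after seeing the data), 6 without a filter on low counts, 5 without the 12 h libraries, 6 without the 48 h libraries and 7 with slope terms. It was 0 with library totals only, with at least 50 counts, at a threshold of 0.01, without the 24 h libraries, without the time point in the model and for olaparib alone. The calls over all genes also changed by setting. Higher and lower calls were 544 and 174 of 17218 in the main fit and 1835 and 1639 with DESeq2. They were 2057 and 1671 of 33282 without a filter, and 3465 and 3339 with slope terms. At a threshold of 0.01 they were 18 and 0, and without the 24 h libraries 0 and 0 of 16613. Library totals only gave 387 and 81, no time point 16 and 0, and olaparib alone 110 and 0. Without the 12 h libraries they were 2065 and 1703 of 16692, and without the 48 h libraries 842 and 397 of 16653. With at least 50 counts they were 271 and 72 of 13209. For limma-voom, 1793 genes were called in either direction. Leaving out 1 library gave 0 to 6 calls for the mean effect, 2 to 5 for the slope (5 in full), 5 to 6 for shEVI1-2531 (6 in full), 7 to 8 for shEVI1-2532 (8 in full) and 3 to 6 between the hairpins (6 in full). Without the day in the model, 3 members were called with shEVI1-2531 and 2 between the hairpins, and with both shRNAs as 1 group 1 member was called against NTC. Of all 18606 genes, those fits called 276 higher and 289 lower, 465 and 456, and 158 and 150, in that order.

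Small, uncalled effects changed sign. With library totals only, the slope was -0.0550 for ITGB1 and -0.0743 for ITGAE, shEVI1-2531 gave -0.13 for ITGA4 and -0.0541 for ITGAE, and the hairpins differed by -0.0447 for ITGA5. With both shRNAs as 1 group ITGAE was at -0.15. Between talazoparib and olaparib, ITGA5 was at 0.0009 (DESeq2), 0.0251 (upper quartile), 0.0067 (at least 50 counts), 0.12 (without 24 h) and 0.0005 (limma-voom), ITGB1 at 0.0179 (upper quartile) and 0.0519 (without 48 h), and ITGAL at -0.0316 (without 48 h).

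Leaving out 1 library, slopes ranged from -0.30 to 0.0084 (ITGA4), -0.26 to 0.0444 (ITGA5), -0.25 to 0.36 (ITGB1) and -0.25 to 0.32 (ITGAE). Between the inhibitors the ranges were -0.0898 to 0.21 (ITGAL), -0.0171 to 0.60 (ITGB2), -0.10 to 0.10 (ITGA5), -0.12 to 0.0556 (ITGB1) and -0.16 to 0.76 (ITGB7). With shEVI1-2531 they were -0.26 to 0.34 (ITGA4) and -0.30 to 0.0037 (ITGA5), with shEVI1-2532 -0.29 to 0.17 (ITGA5), and between the hairpins -0.14 to 0.31 (ITGA5). The cause of these changes was not tested. No paired analysis was possible because every group held 1 replicate number, other than the matching by time point or day that the tests already hold as a block. With 1 library per condition, culture-to-culture spread is not measured.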
